A study of Homo sapiens with 2 samples.

Results

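HOX genes encode transcription factors with a homeodomain, the fold that binds DNA, and they give cells along the head-to-tail axis of the embryo their position. They lie in 4 clusters, HOXA, HOXB, HOXC and HOXD, and genes with the same number in different clusters (paralogs) descend from 1 ancestral gene. In the embryo the low-numbered genes at the 3′ end of a cluster come on first and nearest the head, and the high-numbered genes at the 5′ end come on last and nearest the tail. Retinoic acid is a known inducer of HOX genes in embryonic cells, through RAR and RXR nuclear receptors bound near the 3′ genes, while Polycomb proteins hold silent clusters shut and Trithorax proteins keep active ones open. Adult liver cells derive from the gut endoderm, and tumour lines often carry HOX patterns of their own.

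The genes were chosen by symbol alone: 38 HOX protein genes among the 60623 entries of the count table, of which 10 are HOXA, 10 HOXB, 9 HOXC and 9 HOXD genes. Every sum, share, count and rank of HOX genes below is over these 38, not over the 39 HOX protein genes of the table. They were measured by RNA sequencing in HepG2, a human hepatocellular carcinoma line labelled WT, in 2 groups of 1 library each. The cells of the FFA group were loaded for 24 h with 1 mM free fatty acids, a mix of oleic and palmitic acid carried on albumin that serves as a culture model of steatosis. The FFA + 9-cis-RA group had the same fatty acids plus 10 μM 9-cis-retinoic acid, an isomer that activates RXR and RAR receptors. Neither library stands for cells without fatty acids, and both come from 1 cell line in 1 labelled batch.

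The libraries held 60821539 (FFA) and 57669670 (FFA + 9-cis-RA) fragment counts on genes, so 3 counts, taken as the limit that a count of 0 allows, stand for 0.0493 and 0.0520 CPM, the count scaled to the library total. Every value below is given as FFA first and FFA + 9-cis-RA second. No replicate error can be had from 1 library per group, so no p-value is given, and each 95% interval covers counting error only and compares these libraries rather than the conditions. CYP26A1, the retinoic acid hydroxylase used to check the treatment label, had 4 and 709 counts. Of the hepatocyte and hepatoma markers, 7 of 8 were abundant (at least 28.2 TPM, a level per exon length scaled to the library), whereas transthyretin (TTR) stood at only 6.78 TPM in the FFA library and had 341 and 278 counts. All 8 had intervals outside 0, with 3 higher and 5 lower, against 22.5% above 0 and 25.7% below among all genes compared. Of 7 markers of other cell types, PTPRC was at 0 and COL1A1, COL1A2 and CD68 had at most 15 counts in a library. Of the 4 compared, 1 had an interval above 0 and 3 below. CD68, with 5 and 15 counts, was the higher one (1.44, 0.08 to 3.43). VWF had 184 and 118 counts, PECAM1 52 and 29 and ACTA2 1186 and 773, each with an interval below 0. The summed level of the list was 20.3 and 14.6 TPM, nearly all of it from ACTA2. The part of these differences in the HOX values was not tested. In bulk RNA, fewer cells that express a gene and less of its RNA per cell cannot be told apart.

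The homeobox, the 180-base stretch that encodes the homeodomain, is shown for the 3 genes that rose most. The sequences were read from GENCODE transcripts on GRCh38, 5′ to 3′ on the gene's strand, and the capitals mark the 18 bases for the conserved core of the helix that contacts DNA. They lie in the last exon at chr12:53956357-53956536 (+) for HOXC12, chr7:27198222-27198401 (-) for HOXA13 and chr7:27141886-27142065 (-) for HOXA5.
HOXC12: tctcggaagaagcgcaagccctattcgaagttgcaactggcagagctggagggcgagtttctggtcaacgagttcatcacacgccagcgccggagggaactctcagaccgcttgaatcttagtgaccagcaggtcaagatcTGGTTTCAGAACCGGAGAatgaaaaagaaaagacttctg
HOXA13: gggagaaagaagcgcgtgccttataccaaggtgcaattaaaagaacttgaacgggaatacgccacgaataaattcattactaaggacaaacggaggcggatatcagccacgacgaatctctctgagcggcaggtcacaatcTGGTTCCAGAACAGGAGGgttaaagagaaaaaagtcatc
HOXA5: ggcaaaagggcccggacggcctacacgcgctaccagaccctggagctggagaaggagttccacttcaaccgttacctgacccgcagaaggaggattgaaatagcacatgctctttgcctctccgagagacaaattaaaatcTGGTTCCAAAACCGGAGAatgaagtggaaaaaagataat
Over all 38 genes, pairs with the same number were identical at a median of 81.7% of bases (40 pairs, from 69.4% to 90.6%), and pairs within a cluster at a median of 61.1% (162 pairs, from 47.8% to 91.1%). The longest run of bases shared by any of the 703 pairs was 51. The median was thus higher by number than by cluster, although the pair most alike by bases, HOXA6 and HOXA7, lies within a cluster. By amino acids of the homeodomain, pairs within a cluster reached at most 93.3%. HOXA5 and HOXB5, which share a number, reached 100%.

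HepG2 cells of both groups expressed HOXA, HOXC and HOXD genes and almost no HOXB gene. The 38 genes together had 12306 and 14780 counts, or 202 and 256 CPM. After scaling, the sum was higher with 9-cis-RA by 0.29 on the log2 scale (95% interval 0.26 to 0.33). By cluster, HOXA was higher by 0.66 (0.61 to 0.70), HOXD lower at -0.55 (-0.64 to -0.45), and HOXC stood at -0.02 (-0.08 to 0.05). Without HOXA3 and HOXA5, the 2 genes with the most counts in the FFA + 9-cis-RA library, the sum of the other 36 genes had a log2 ratio of -0.019.

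Of the 38 genes, 8 had no count in either library and 26 had the 10 counts over both libraries required for a comparison. The 26 comprised every listed HOXA and HOXC gene and 7 of 9 HOXD genes. Of the 26, 10 were higher and 16 lower with 9-cis-RA, a split that total-count scaling moved to 13 and 13 because HOXC4, HOXC9 and HOXC13 lie close to 0. The counting interval lay above 0 for 7 of the 26 and below 0 for 8, while 11 intervals included 0, and these counts were the same with TMM and total-count scaling. Across the 20431 genes compared in the whole table, 22.5% had an interval above 0 and 25.7% below 0, so these shares of the HOX genes were near the background. A log2 fold change above 1 was reached by 3 HOX genes, against 3.37% of all genes compared, and 1 gene lay below -1, against 4.9%. The HOX median was -0.09, beside -0.02 for all genes compared. The clusters differed in direction: the median was 0.43 over HOXA, -0.02 over HOXC and -0.60 over HOXD.

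**Figure D1:**
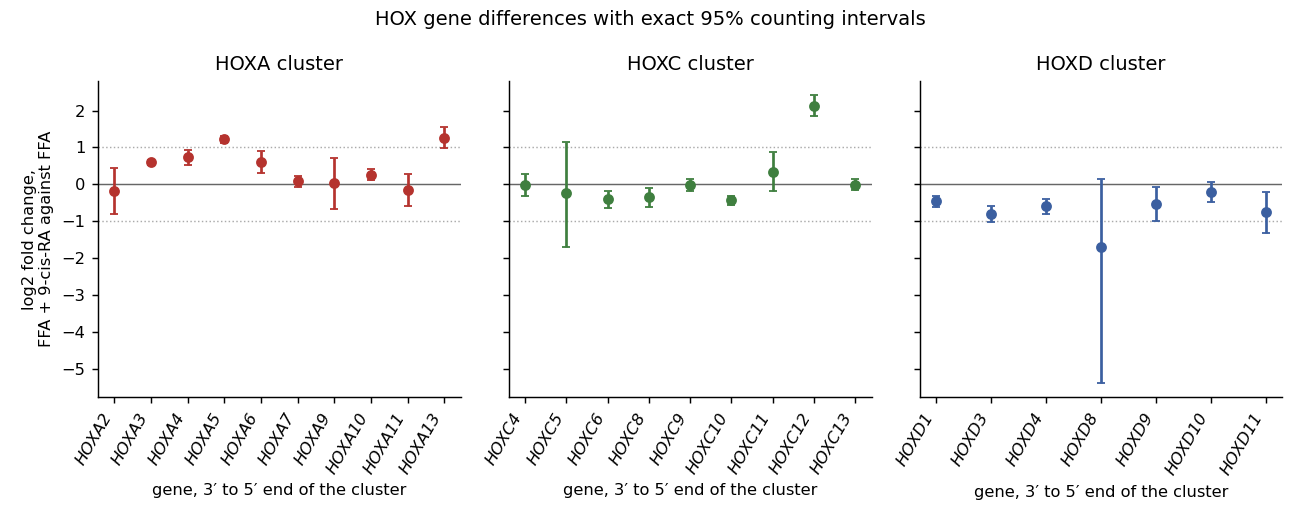
Log2 fold change (FFA + 9-cis-RA against FFA) of the 26 compared HOX genes, ordered within each cluster, with exact 95% counting intervals and 1 library per group. HOXC12, HOXA13 and HOXA5 lie above 1, all 7 HOXD genes lie below 0, and HOXD8 has a wide interval because it rests on 9 and 2 counts.

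The HOXA cluster on chromosome 7 was the most abundant in both libraries and the one that rose. Its 10 genes summed to 105 and 186 TPM, which is 43.5% and 60.3% of the summed HOX level. Of its 10 genes, 8 were higher and 2 lower with 9-cis-RA. The interval lay above 0 for 6 and below 0 for 0, against 22.5% and 25.7% of all genes compared. The other 4 intervals included 0. The 6 genes whose interval lay above 0 were HOXA3, HOXA4, HOXA5, HOXA6, HOXA10 and HOXA13, which span the cluster from the second listed gene to the last.

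HOXA5 (chr7:27141052-27143681, minus strand), a regulator of lung development and of the cervical and thoracic skeleton, had 1098 and 2501 counts. Its log2 fold change was 1.21 (95% interval 1.11 to 1.32), a 2.32-fold difference. In TPM, which is not scaled by the size factors behind that fold change, it moved from 30.4 (28.6 to 32.3) to 75.2 (72.3 to 78.2). In the FFA library HOXA3 stood at 30.6 TPM (29.4 to 31.7), an interval that overlaps that of HOXA5. TPM divides by the full exon length, although reads on bases shared with other genes are not counted. Such bases make up 9.24% of HOXA3 and 0% of HOXA5, which lowers HOXA3. Their order in the FFA library therefore depends on the length used. In the FFA + 9-cis-RA library HOXA5 was the most abundant HOX gene and HOXA3 followed at 49.2 TPM (47.7 to 50.8).

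HOXA3 (chr7:27106184-27152581, minus strand), needed for the thymus and parathyroid glands, had the most counts of the 38 genes, 2761 and 4099. It was higher by 0.60 on the log2 scale (0.53 to 0.67). HOXA4, a gene of the cervical region, had 341 and 554 counts and a log2 fold change of 0.73 (0.53 to 0.93), and 31.3% of its exonic bases are overlapped on the same strand by other annotated genes, where reads are not counted. HOXA6 had 156 and 231 counts and a log2 fold change of 0.59 (0.29 to 0.90). Thus 3 neighbours in the central part of the cluster and HOXA3 next to them moved the same way, but HOXA7, the next gene towards the 5′ end, had 734 and 763 counts and an interval that included 0 (0.08, -0.06 to 0.23).

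At the 5′ end, HOXA13 (chr7:27193503-27200091, minus strand), which shapes the digits and the genital tract, had 148 and 348 counts. Its log2 fold change of 1.26 (0.98 to 1.55) was the highest point value in the cluster, and its interval overlapped that of HOXA5. The genes between them changed less. HOXA10, known from the uterus and the leukaemias, had 719 and 846 counts (0.26, 0.12 to 0.41). HOXA9, a blood stem cell gene, had 38 counts in each library, and HOXA11, a gene of the forearm and uterus, had 100 and 88. HOXA2, the lowest-numbered of the listed HOXA genes, which patterns the second pharyngeal arch, had 50 and 43 counts. The intervals of HOXA2 (-0.81 to 0.43), HOXA9 (-0.66 to 0.72) and HOXA11 (-0.59 to 0.27) all included 0, so no difference was detectable for them at this depth.

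**Figure D2:**
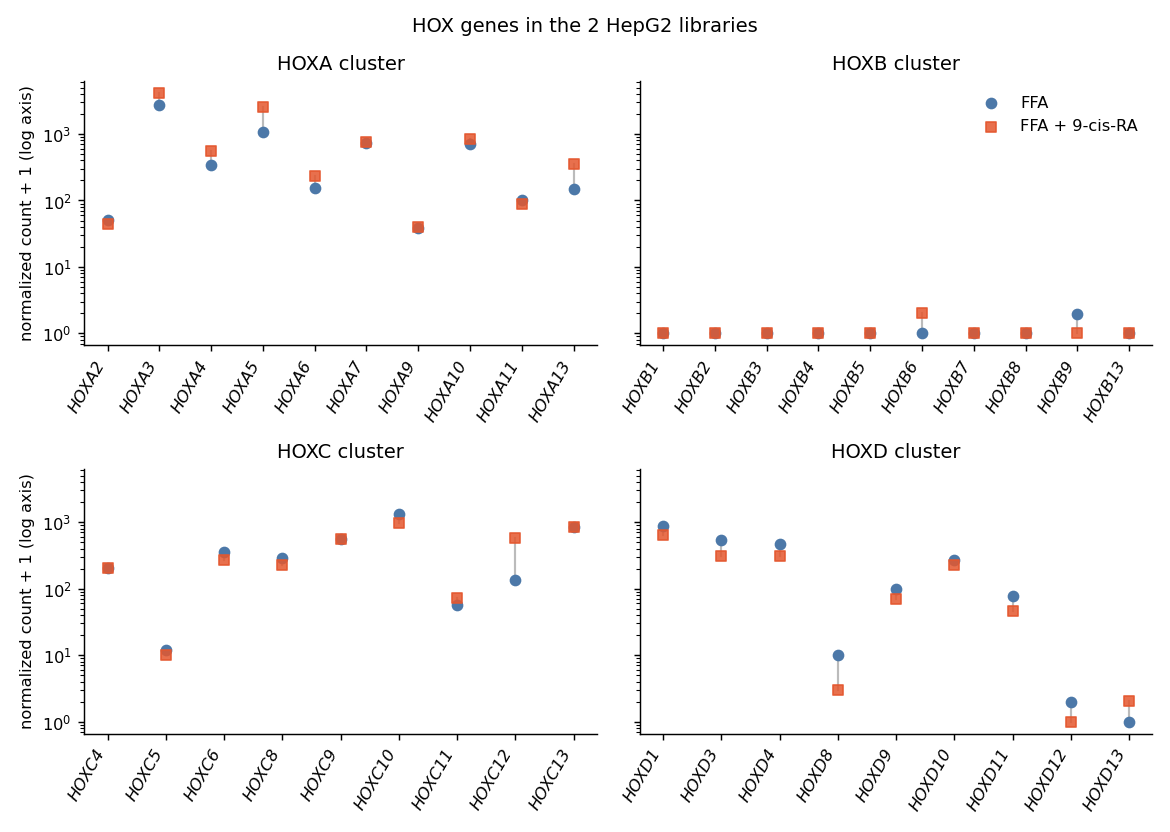
Normalized count plus 1 (log axis) of each of the 38 HOX genes by cluster, with 1 point for each library, so that a gene without counts sits at 1. HOXA5 moves from 1088 to 2525 normalized counts and HOXC12 from 134 to 585, while the HOXB genes sit at or next to 1.

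Promoter sequences were available in the RefSeq table (GRCh38.p14) for 20 of the 38 genes, of which HOXC4 and HOXC5 share 1 window. They are shown for HOXA13, which rose beyond 1, and HOXA3, with the most counts, as the 250 bases before the start site at chr7:27200092-27200341 and chr7:27152584-27152833, read on the minus strand with each CG in capitals.
HOXA13: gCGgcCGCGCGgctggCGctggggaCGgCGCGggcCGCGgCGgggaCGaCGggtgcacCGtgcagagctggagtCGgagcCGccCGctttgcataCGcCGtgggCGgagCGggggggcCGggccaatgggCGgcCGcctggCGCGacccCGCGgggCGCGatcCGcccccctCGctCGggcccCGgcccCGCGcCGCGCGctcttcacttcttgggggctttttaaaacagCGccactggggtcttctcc
HOXA3: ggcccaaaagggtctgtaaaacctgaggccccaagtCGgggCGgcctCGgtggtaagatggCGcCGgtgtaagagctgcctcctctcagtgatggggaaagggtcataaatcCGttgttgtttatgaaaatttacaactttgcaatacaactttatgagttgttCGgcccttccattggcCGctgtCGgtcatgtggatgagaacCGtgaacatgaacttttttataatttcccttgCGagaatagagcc
The HOXA13 sequence holds 40 CG pairs and the HOXA3 sequence 11. Over the 20 windows of 300 bases the median ratio of observed to expected CG was 0.87, beside 0.58 over all 35116 promoters, at a GC content of 58.0% and 58.7%. The letters AGGTCA, the hexamer that RAR and RXR dimers recognise, were found on neither strand in any of the 20 windows, and in 13.8% of all promoters. Its direct repeats with spacers of 1, 2 or 5 bases (DR1, DR2, DR5), exact or with 2 letters of each hexamer relaxed, were in 0 of 20, and in at most 0.131% of all promoters. TATAAA was in 4 of the 20 (HOXA3, HOXA9, HOXA10 and HOXD13), or 20% beside 11.5% of all. These letters describe only the searched windows. Only 1 window was searched for each gene, so any other start site of a gene was not searched. The HOXA3 window lies at the far upstream end of that gene. HOXA5 and HOXC12, which also rose beyond 1, had no window and were not searched. The only HOXC window was the one that HOXC4 and HOXC5 share.

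The HOXB cluster on chromosome 17 gave almost no counts. HOXB1, HOXB2, HOXB3, HOXB4, HOXB5, HOXB7, HOXB8 and HOXB13 had 0 counts in both libraries. HOXB6 had 0 and 1 count, and HOXB9 had 1 and 0. The cluster as a whole therefore had 1 count in each library, at or under the limit of 3 counts, and no fold change is given. This cluster includes HOXB4, a gene of blood stem cells, and HOXB13, the prostate member. The 4 antisense genes HOXB-AS1, HOXB-AS2, HOXB-AS3 and HOXB-AS4 were also at 0 in both libraries, as was PRAC1 between HOXB13 and the rest of the cluster, and SKAP1 next to the cluster had 1 and 0 counts. The nearby genes CBX1 (5785 and 6312 counts), SNX11 (1311 and 1391) and CALCOCO2 (2860 and 3553) were well covered. The near absence of counts thus took in the HOXB genes, their antisense genes and 2 genes beside them. TTLL6, between HOXB13 and CALCOCO2, had 13 and 5 counts.

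The HOXC cluster on chromosome 12 kept its summed level while its genes moved apart. Its 9 genes summed to 77.2 and 79.1 TPM. With 9-cis-RA 2 were higher and 7 lower, or 4 and 5 with TMM and 5 and 4 with total-count scaling. The interval lay above 0 for 1 gene and below 0 for 3, against 22.5% and 25.7% of all genes compared. The other 5 intervals included 0. The sum had a log2 ratio of -0.21 (-0.28 to -0.14) without HOXC12 and of 0.17 (0.09 to 0.25) without HOXC10, so its sign rests on which of these genes is counted.

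HOXC12 (chr12:53954903-53958956, plus strand), a posterior gene of the hindlimb and skin, had 135 and 579 counts. Its log2 fold change of 2.12 (1.86 to 2.41), or 4.37-fold, was the highest of the 26 HOX genes compared, and its interval lay wholly above those of HOXA13 and HOXA5. Its level per length moved from 1.97 to 9.17 TPM. The genes on either side did not share this: HOXC13, which drives hair and nail keratin genes, had 847 and 826 counts (-0.01, -0.15 to 0.13), and HOXC11 had 56 and 70 (0.34, -0.18 to 0.88). HOXC13-AS, which lies on the opposite strand across the start of HOXC13, had 233 and 412 counts (0.85, 0.61 to 1.09).

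HOXC10 (chr12:53985065-53990279, plus strand), a gene of lumbar motor neurons, was the most abundant HOXC gene in both libraries at 26.8 and 21.0 TPM. Its 1332 and 965 counts gave a log2 fold change of -0.44 (-0.56 to -0.32). HOXC6, a thoracic gene, had 360 and 266 counts (-0.41, -0.64 to -0.18), and HOXC8, which specifies brachial motor neurons, had 288 and 221 (-0.35, -0.61 to -0.10). These 3 were the HOXC genes whose interval lay below 0. HOXC9, a thoracic gene that sits between HOXC10 and HOXC8, had 562 and 545 counts (-0.02, -0.19 to 0.16), and HOXC4 at the 3′ end had 207 and 200 (-0.02, -0.31 to 0.27). HOXC5 rests on 11 and 9 counts, and other genes on its strand overlap 59.9% of its exonic bases.

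The HOXD cluster on chromosome 2 was lower throughout. Its 9 genes summed to 58.9 and 43.2 TPM, and its share of the summed HOX level was 24.4% and 14.0%. All 7 genes compared were lower with 9-cis-RA, 5 of them with an interval below 0 and 2 with an interval that included 0. In the whole table, 10680 of the 20431 genes compared were lower and 25.7% had an interval below 0. In the FFA library, taken as a description of 1 library, the Spearman correlation of TPM with gene number was -0.71 over the 7 HOXD genes, -0.36 over the 10 HOXA, 0.32 over the 9 HOXC and -0.30 over the 26 genes, so the order of levels by position differed between clusters.

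HOXD3 (chr2:176136612-176173102, plus strand), a gene of the first vertebrae, had 544 and 305 counts and stood at a log2 fold change of -0.81 (-1.01 to -0.60). HOXD4, its neighbour, had 475 and 307 (-0.60, -0.81 to -0.39). HOXD1 (chr2:176188668-176190907, plus strand) at the 3′ end, known from pain-sensing neurons, had 889 and 634 (-0.46, -0.61 to -0.31). In TPM it stood at 22.5 (21.0 to 24.0) and 17.4 (16.1 to 18.8) and HOXD4 at 19.9 (18.2 to 21.8) and 14.0 (12.5 to 15.6), so HOXD1 ranked first in the FFA + 9-cis-RA library but could not be ranked above HOXD4 in the FFA library. The 3 anterior-most genes compared in this cluster thus all had less RNA in the FFA + 9-cis-RA library.

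Towards the 5′ end the HOXD counts were smaller. HOXD9 had 99 and 67 counts (-0.53, -1.01 to -0.07), and HOXD11, which forms the forearm together with HOXA11, had 78 and 45 (-0.75, -1.33 to -0.22). HOXD10, a lumbar motor neuron gene, had 267 and 226 (-0.21, -0.47 to 0.05). HOXD8 gave the only log2 fold change below -1, but it rests on 9 and 2 counts and its interval ran from -5.39 to 0.13. HOXD12 had 1 and 0 counts and HOXD13, the main digit gene, had 0 and 1, so neither was compared.

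**Figure D3:**
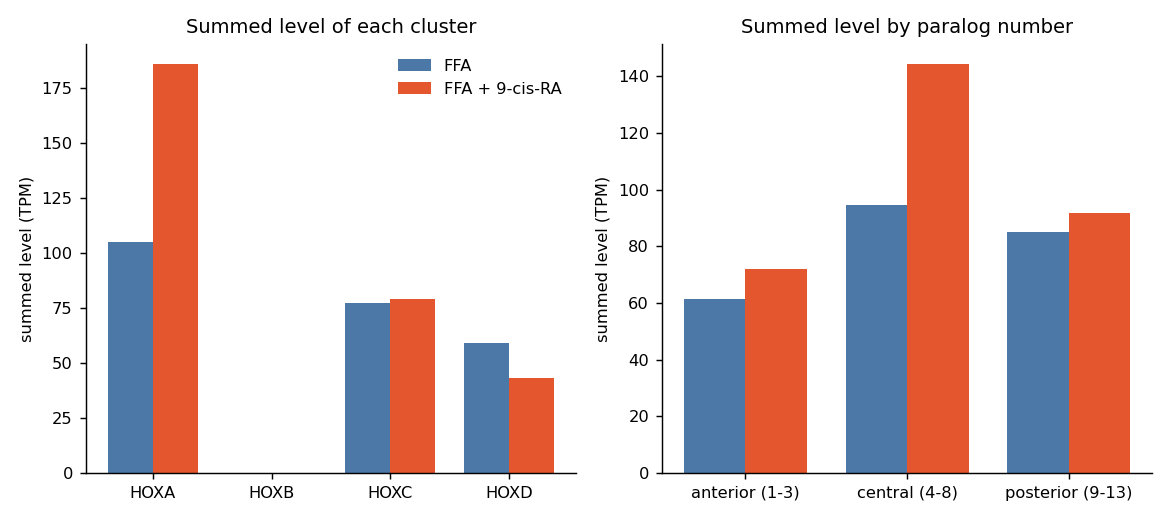
Summed level in TPM of the HOX genes by cluster and by position class in each library, with the bars starting at 0 and 1 library per group. HOXA rises from 105 to 186 TPM, HOXD falls from 58.9 to 43.2 TPM, and HOXB stays near 0.

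Position within the cluster separated the genes less than the cluster did. Genes were classed by number as anterior (1 to 3), central (4 to 8) or posterior (9 to 13). The summed log2 ratio was above 0 in each class, at 0.29 (0.23 to 0.35) for anterior, 0.49 (0.42 to 0.55) for central and 0.11 (0.05 to 0.17) for posterior genes. The class medians were below 0, at -0.32, -0.13 and -0.01, so sum and median differed in sign, except that the posterior median was 0.007 with TMM and 0.036 with total-count scaling. Within each class the sums of HOXA and HOXD had opposite signs. The anterior sum was 0.59 (0.52 to 0.66) for HOXA and -0.58 (-0.70 to -0.46) for HOXD. HOXA3 gave 2761 of the 2811 and 4099 of the 4142 HOXA anterior counts, whereas HOXA2 stood at -0.19 (-0.81 to 0.43). The central sum was 0.83 (0.75 to 0.90) for HOXA, -0.29 (-0.43 to -0.14) for HOXC and -0.62 (-0.83 to -0.41) for HOXD. HOXD4 gave 475 of the 484 and 307 of the 309 HOXD central counts. HOXA5 gave 1098 of the 2329 and 2501 of the 4049 HOXA central counts. The posterior sum was 0.42 (0.30 to 0.54) for HOXA, 0.05 (-0.02 to 0.13) for HOXC and -0.36 (-0.57 to -0.16) for HOXD. Of the 4 HOXA posterior genes, 2 had an interval above 0, against 22.5% of all genes compared, and 2 an interval that included 0. As a description, the Spearman correlation of gene number with log2 fold change was 0.22 over the 26 genes, 0.07 over the 10 HOXA, 0.55 over the 9 HOXC and 0.07 over the 7 HOXD genes, all from the same pair of libraries.

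HOXA genes had a higher log2 fold change than their HOXD paralogs in 5 of 5 pairs, and the intervals did not overlap in 3 (HOXA3 and HOXD3, HOXA4 and HOXD4, HOXA10 and HOXD10). The difference was 1.40 for the HOXA3 pair and 1.33 for the HOXA4 pair. HOXA genes were above their HOXC paralogs in 6 of 7 pairs, with 4 pairs of intervals apart (numbers 4, 6, 10 and 13), and HOXA11 was the exception. HOXC genes were above HOXD paralogs in 4 of 5 pairs, with 2 apart (numbers 4 and 11), and HOXC10 was the exception. How often the intervals of other gene pairs lie apart was not counted, so these numbers have no background. Some genes enter more than 1 pair, and the pairs use the same values as the cluster medians. In group 12, HOXC12 was the only gene with enough counts, and HOXD12, identical to it at 70.6% of homeobox bases, had 1 count.

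The noncoding RNAs of the loci, which include regulators of HOX genes such as HOTAIR and HOTTIP, gave counts on their own strand because the libraries are stranded. Of 18 listed, 17 were in the table and 12 were compared, 6 higher and 6 lower, with 4 intervals above 0 and 3 below. Among all genes compared, the shares were 22.5% above 0 and 25.7% below. In the HOXA locus all 4 compared were higher, but HOTTIP rests on 7 and 9 counts and its interval included 0 (0.35, -1.20 to 2.05). HOXA10-AS had 3 and 1 counts and was not compared. HOXA-AS2, opposite HOXA3, had 1040 and 1465 counts (0.52, 0.41 to 0.64), HOXA-AS3 had 24 and 57 (1.24, 0.56 to 2.03) and HOXA11-AS had 27 and 47 (0.80, 0.11 to 1.57). In the HOXD locus all 3 were lower, with HOXD-AS2 at 282 and 148 counts (-0.90, -1.20 to -0.61) and HAGLR at 2743 and 2211 (-0.28, -0.36 to -0.20). HAGLROS rests on 7 and 3 counts and its interval included 0 (-0.98, -3.78 to 0.94). In the HOXC locus 2 were higher and 3 lower. HOTAIR, which lies between HOXC12 and HOXC11 on the opposite strand, had 163 and 137 counts (-0.22, -0.56 to 0.11), and HOXC-AS2 had 142 and 84 (-0.72, -1.14 to -0.33).

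The protein genes next to the clusters did not all move with them. Beside HOXA, SKAP2 had 4250 and 6312 counts (0.60, 0.54 to 0.65), close to the value of HOXA3, but the next gene outward, SNX10, was lower at -0.33 (-0.39 to -0.28). HIBADH (0.07, 0.01 to 0.13) and TAX1BP1 (0.13, 0.08 to 0.18) were slightly higher. Thus 3 of 4 intervals beside HOXA lay above 0, against 22.5% of all genes compared. The same held for 3 of the 4 genes compared beside HOXB, a cluster with almost no counts. Beside HOXC, 1 interval lay above 0 and 3 below, where 25.7% of all genes compared lay below. The HOXD side had 1 above and 1 below. Beside HOXD, MTX2 stood at -0.21 (-0.26 to -0.15) and LNPK was higher at 0.47 (0.40 to 0.53), against the direction of the HOXD genes, with ATF2 at 0.02 and ATP5MC3 at 0.01. Medians over the 4 flanking genes compared were 0.10 beside HOXA, 0.13 beside HOXB, -0.07 beside HOXC and 0.02 beside HOXD. Total-count scaling adds 0.049 to each log2 fold change.

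**Figure D4:**
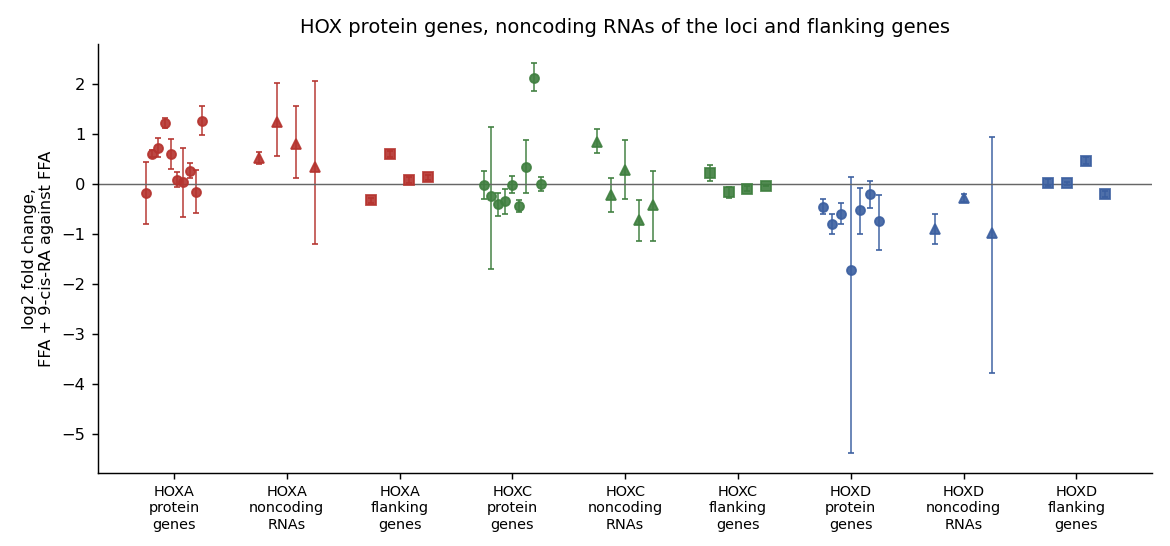
Log2 fold change (FFA + 9-cis-RA against FFA) with exact 95% counting intervals for the protein genes, noncoding RNAs and flanking protein genes of the HOXA, HOXC and HOXD loci, 1 library per group. All 4 compared HOXA noncoding RNAs lie above 0 and all 3 HOXD noncoding RNAs below 0, while flanking genes lie on both sides in each locus. Among these HOXA and HOXD noncoding RNAs, the intervals of HOTTIP and HAGLROS include 0.

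Other genes of the HOX system were read from short lists. The cofactors that bind DNA with HOX proteins gave 6 genes compared of 9, 3 higher and 3 lower, with 2 intervals on each side of 0. Of all genes compared, 22.5% had an interval above 0 and 25.7% below. PBX2 had 3918 and 2502 counts (-0.62, -0.69 to -0.55) and MEIS2 had 1735 and 1116 (-0.61, -0.72 to -0.50), whereas PKNOX1 had 868 and 1096 (0.36, 0.23 to 0.49) and PBX3 had 740 and 841 (0.21, 0.07 to 0.36). Among the 6 retinoic acid receptors, RARB, itself a retinoid target, had 6 and 46 counts (2.77, 1.74 to 4.48), RXRA was lower at -0.44 (-0.49 to -0.40), and RARA (0.20) and RXRB (0.30) were higher with intervals above 0.

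The chromatin genes that act on HOX clusters changed little. All 17 Polycomb genes were compared, 13 higher and 4 lower (15 and 2 with total-count scaling), with 6 intervals above 0 (8 with TMM and 9 with total-count scaling), 1 below and a median of 0.06. Of all genes compared, 22.5% had an interval above 0. The Polycomb genes ran from -0.32 for PCGF2 to 0.27 for CBX7, and the methyltransferase gene EZH2 was at 0.15 (0.09 to 0.22). Of 9 Trithorax and H3K27 demethylase genes, 6 were higher and 3 lower (8 and 1 with total-count scaling), with a median of 0.08. Intervals lay above 0 for 5 (6 with TMM and 6 with total-count scaling), again against 22.5% of all genes compared, and below 0 for 1. KDM6B, an H3K27 demethylase, was at 0.28 (0.22 to 0.35) and KMT2A at 0.11 (0.04 to 0.18).

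Homeobox genes outside the clusters moved in both directions. Of 13 ParaHox and HOX-linked genes, 8 were at 0 in both libraries, EVX1 and EVX2 at the ends of HOXA and HOXD among them. The 2 compared were higher: CDX2, an activator of HOX genes in the gut, rests on 3 and 14 counts (1.93, 0.41 to 4.69), and MNX1 had 652 and 769 (0.27, 0.11 to 0.42). All 7 liver homeobox genes were lower, 4 of them with an interval below 0, and their median was -0.25. Of the 20431 genes compared in the whole table, 10680 were lower and 25.7% had an interval below 0. PROX1, a hepatocyte and lymphatic factor, had 5854 and 2080 counts (-1.46, -1.54 to -1.39), and HHEX, needed to form the liver bud, had 919 and 760 (-0.25, -0.39 to -0.11).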

How the data were processed

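The values are the raw gene-level fragment counts that the authors deposited for 2 HepG2 RNA sequencing libraries, 1 of each group. They come from featureCounts version 2.0.1, with the reverse strand (setting 2) and with each pair counted only if both of its ends mapped. Multi-mapping reads and reads over more than 1 gene were not counted. This lowers the counts of overlapping genes. The build is GRCh38 per the labels, and the aligner and annotation release are not given in the sources used here. The submitters' notes also name DESeq2.

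Counts were divided by median-of-ratios size factors (1.01 and 0.990) from DESeq2 version 1.42.0. Log2 fold changes used normalized counts plus a pseudocount of 1, which understates changes of low genes, and the threshold was 1. A gene was compared when its counts in the libraries summed to 10 or more. Intervals are exact 95% Clopper-Pearson intervals of the share of counts, or exact Poisson intervals for TPM, which was computed from counts and exon length. TPM does not use the size factors, and its ratio of FFA + 9-cis-RA to FFA runs higher than the fold change. HOXC13, for example, had 17.1 and 18.1 TPM at a log2 fold change of -0.01. With 1 library per group no model was fitted. Symbols were found for 60295 of 60623 entries. The alternatives were TMM factors (edgeR version 4.0.16), total-count scaling, other pseudocounts and count minimums, the whole interval past the threshold, and leaving out members with over 25% of exonic bases overlapped. Steps were tested on simulated data.

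Every listed HOX gene is accounted for. Given in full are those past 1 or -1 with an interval outside 0, and the most abundant gene of each expressed cluster. The genes and lists were chosen with earlier results of these data known. Of the 39 HOX protein genes in the table, 1 is not reported here.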

Additional observations from a re-analysis of the deposited data

How the results depend on the processing

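With 1 library per group, no library could be left out, and no paired analysis was possible because each group has 1 library. Fold changes of the 26 compared HOX genes moved by less than their counting intervals under TMM and total-count scaling, which added 0.020 and 0.049 to each, and pseudocounts of 0.1 and 5. Values near 0 changed sign: HOXC9 and HOXC13 with both scalings, HOXC4 with total counts, the HOXC sum (0.0024 and 0.032), the posterior median (0.0073 and 0.036), the HOXC median with total counts (0.027), and the central median with at least 50 counts (0.031). With total-count scaling the summed log2 ratio was 0.34 over all clusters and 0.71 over HOXA. The number of HOX genes below -1, which was 1, became 0 with a pseudocount of 5, with at least 50 counts and with the whole interval past the threshold. The number above 1 became 5 with no count minimum and 2 with the whole interval. After the data were seen, single genes were left out: the HOXC sum was then -0.21 without HOXC12 and 0.17 without HOXC10, the HOXA sum was 0.71 without HOXA3 and 0.50 without HOXA5, and the sum over all clusters reversed to -0.019 without HOXA3 and HOXA5. Over all alternatives for the counts, medians and sums, 74 values stayed within their limits, 10 moved and 1 reversed. A HOXB median could not be computed. Depth limits HOXA2, HOXA9, HOXA11, HOXC5, HOXC11, HOXD8, HOXD9 and HOXD11, whose intervals are wide.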
